A study of Homo sapiens with 6 samples.

Results

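The genes described here encode the constitutive subunits of the human proteasome, 32 genes in all, with 14 for the 20S core, 6 for the ATPases of the 19S cap and 12 for the cap's other subunits. They were chosen by name, and 31 were found among the 57820 genes of the count files by matching Ensembl identifiers to symbols. PSMB3, a core subunit, was not matched by identifier and has no values here. The mRNAs were measured by RNA sequencing in C4-2B-ENZR, a line of human prostate cancer cells whose name marks resistance to the prostate cancer drug enzalutamide. There were 3 libraries from cells transfected with an siRNA against RUVBL1 and 3 from cells transfected with a negative-control siRNA. Both groups were of this one line, grown in medium with serum and antibiotics, and the labels name a single kind of RUVBL1 siRNA. RUVBL1 is an AAA+ ATPase that acts with RUVBL2 in chromatin remodelling and helps other protein complexes to assemble. Whether replicates came from separate cultures is not in the labels, and the spread behind each p-value may be technical.

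The proteasome degrades proteins tagged with ubiquitin. Its 20S core is a barrel of stacked rings, in which outer rings of alpha subunits (PSMA genes) gate the entrance and inner rings of beta subunits (PSMB genes) hold the proteolytic sites. The 19S cap binds ubiquitin chains, removes them and feeds the unfolded substrate into the core with a ring of AAA+ ATPases (PSMC genes). The remaining cap subunits form part of the base or the lid. The complex holds its subunits in fixed proportions, and in human cells the transcription factor NFE2L1 raises the transcription of subunit genes when proteasome capacity falls short.

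Library totals ran from 18985542 to 25697804 counts with RUVBL1 siRNA and from 24720504 to 36054489 with control siRNA. RUVBL1 itself had 2725, 2618 and 2710 normalized counts in the RUVBL1 siRNA libraries, against 4681, 4654 and 4758 in the control libraries. The replicate 1 library of each group stood apart. Of 14127 genes that reached 20 counts in all 4 libraries of replicates 2 and 3, both replicate 1 libraries had 0 counts for 542. No proteasome gene was among these, as their counts lay between 1599 and 10674 in all libraries. The 9 luminal prostate markers were all expressed, with FOLH1 at 30872 ± 316 normalized counts after RUVBL1 siRNA and 39345 ± 97 with control siRNA (SD, n = 3 each). Of these markers, 7 fell and 0 rose in edgeR, DESeq2 and limma-voom, and 0 were higher at an unadjusted p under 0.05, whereas with libraries scaled by totals 6 fell and 2 rose. Of 8 markers of stromal, endothelial and immune cells, PECAM1 was not matched by identifier. The low-count filter was passed by 3, COL1A1, VWF and CD68. COL1A1 had 238 ± 19.2 normalized counts after RUVBL1 siRNA and 237 ± 14.6 with control siRNA (SD, n = 3 each). VWF had 42.3 ± 2.42 after RUVBL1 siRNA and 36.5 ± 3.33 with control siRNA, and neither gene was called. COL1A2 and CD3E were at 0 in every library, LYZ had at most 1 count and PTPRC at most 14. CD68 fell by 0.96 on the log2 scale, and its part in the results was not tested.

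Normalized counts are the estimated counts scaled with TMM factors to a mean effective library size of 26348516. Each gene was tested with edgeR's quasi-likelihood test, and a gene was called when its p-value, adjusted over all 16006 genes tested, was under 0.05. All 31 matched subunit genes passed the low-count filter. A bulk count cannot tell fewer cells with an mRNA from less of it per cell. Of all genes tested, 42.2% were called, 19.1% as higher and 23.1% as lower after RUVBL1 siRNA.

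Proteasome subunit mRNAs changed little, and more of them fell than rose. Of the 31 genes, 13 fell (41.9%), 3 rose (9.68%) and 15 were not called. Their median log2 fold change was -0.06, with a range from -0.34 to 0.12, while the median over all genes tested was 0.01. The median size of a change, regardless of sign, was 0.07 for the subunits and 0.19 for all genes tested. All genes tested include genes with far fewer counts than the subunits, so these sizes were not compared at a like level. By class, 4 core genes fell and 3 rose, 2 ATPase genes fell and 0 rose, and 7 of the other cap genes fell and 0 rose. With DESeq2 and limma-voom 0 ATPase genes rose too, also at an unadjusted p, and 1 and 0 of the other cap genes rose, against 1 in edgeR at an unadjusted p under 0.05. The class medians were -0.01 for 13 core genes, -0.05 for 6 ATPase genes and -0.12 for 12 other cap genes.

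The counts depended on how libraries were scaled. When library totals alone were used, the log2 fold change of a gene moved up by a median of 0.0993. Then 13 subunit genes rose and 7 fell, where 31.1% of all genes rose and 14.4% fell (45.5% in all). The medians were then 0.04 for all 31 genes, 0.09 for the core, 0.05 for the ATPases and -0.02 for the other cap genes. Over all genes tested the median with totals alone was 0.11, above that of each class. The 7 genes that fell under both scalings were PSMA6, PSMA7, PSMC1, PSMD1, PSMD2, PSMD6 and ADRM1, and these were also lower in each of the other 14 alternatives tried. PSMB7 was the gene that rose in all 15. The share of all genes that rose was 9.48% without a low-count filter, where 1 subunit gene rose. It was 25.4% among genes with at least 50 counts in 3 libraries, where 5 subunit genes rose. It was 17% with DESeq2, 19.7% with DESeq2 size factors and 22.5% without genes at 0 in replicate 1. In replicates 2 and 3 alone, 14 subunit genes fell and 4 rose, where 24.2% and 20.9% of all genes did so.

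**Figure D1:**
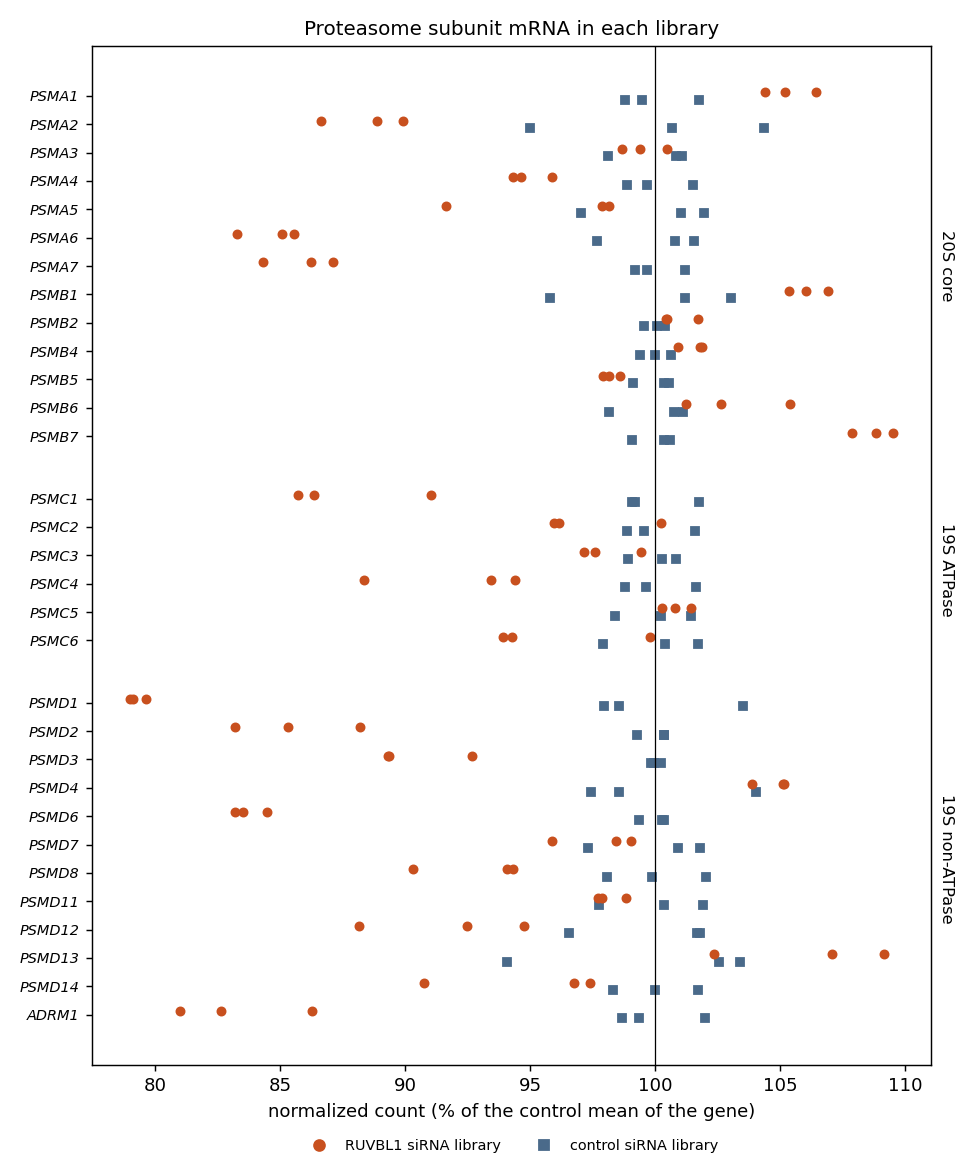
Normalized count of each subunit mRNA in each library, in percent of the control mean of that gene (horizontal axis), for 31 genes in 3 classes; circles are the 3 RUVBL1 siRNA libraries and squares the 3 control libraries. PSMD1 lay farthest to the left, at 79.3% of the control mean, and PSMB7 farthest to the right, at 109%.

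The groups did not overlap for 21 subunit genes, 6 higher and 15 lower (67.7%), where 52.6% of all genes tested did not overlap (25.3% higher and 27.4% lower). An exact two-sided permutation test over the libraries gave p = 0.1 for each of these 21, which is the smallest value possible with 20 ways to assign the libraries. The spread between libraries of a group was narrow, as the plot of values by library shows.

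The promoters of these genes were examined for short motifs in RefSeq windows of 300 bases (GRCh38.p14), from 250 bases before to 50 bases after the transcription start, on both strands. A window was found for 27 of the 32 genes, PSMB3 included, and none for PSMA7, PSMB1, PSMB6, PSMB7 and PSMD4. The motif CCGGAAG contains the GGAA core bound by ETS transcription factors. It was present in 9 of 17 cap promoters (52.9%) and in 0 of 10 core promoters, against 10.7% of 27305 promoters of the same length. Those promoters include genes not tested here. Of tested genes with a window, 2112 carried the motif and 8859 did not, a larger share than over all promoters. CCAAT, the motif of NF-Y, was present in 55.6% of the subunit promoters against 35.7% of all, and the GC box GGGCGG in 70.4% against 44.6%. For CCAAT and the GC box, tested genes were not counted apart. A match is a description of letters and does not show binding. The CCGGAAG matches are shown because they were found in cap genes and in none of the core genes with a window. Each is given on the strand that carries it, with the motif in capitals, and none overlapped a match to another of the motifs searched.
PSMC1 at chr14:90256553-90256579, minus strand: gctgccgctgCCGGAAGttcctccacc
PSMC2 at chr7:103347610-103347636, minus strand: cccttccccaCCGGAAGtaaattgggc
PSMC2 at chr7:103347642-103347668, plus strand: gaagacaccaCCGGAAGcaaggaaggt
PSMC6 at chr14:52707083-52707109, plus strand: acggggccaaCCGGAAGgggagggctc
PSMD6 at chr3:64023515-64023541, minus strand: ggagacgggaCCGGAAGccgggccgca
PSMD7 at chr16:74296802-74296828, plus strand: ggctgacgaaCCGGAAGaagaggaact
PSMD8 at chr19:38374544-38374570, minus strand: aagatggtgaCCGGAAGttggcttttg
PSMD12 at chr17:67366569-67366595, plus strand: gtcacccacaCCGGAAGttgcccgcgc
PSMD13 at chr11:236954-236980, plus strand: ccgctcggcgCCGGAAGtgagtgagca
PSMD14 at chr2:161308411-161308437, plus strand: actagtgaacCCGGAAGtgcttcgcgg

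The antioxidant response element, searched as TGACNNNGC, is the kind of site that NFE2L1 and NFE2L2 bind together with small MAF proteins. It was present in 6 of the 27 subunit promoters (22.2%), against 13.6% of all promoters. Besides PSMB3, the genes were 1 ATPase gene and 4 other cap genes, and PSMD3 held a pair of matches. These matches are shown because the results below return to the 5 genes that carry them. None overlapped a match to another motif searched.
PSMC4 at chr19:39971182-39971210, minus strand: tcctccatagTGACCAAGCcggcctctgt
PSMD1 at chr2:231056896-231056916, plus strand: aggaggcgacTGACTGAGCag
PSMD3 at chr17:39980760-39980788, plus strand: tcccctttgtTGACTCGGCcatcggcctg
PSMD3 at chr17:39980830-39980856, minus strand: ccgcacgaTGACGGAGCagctgcaaac
PSMD12 at chr17:67366724-67366752, minus strand: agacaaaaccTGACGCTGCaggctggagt
ADRM1 at chr20:62302749-62302777, plus strand: cgctcccctaTGACACAGCaacaataggg

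The alpha rings were considered first. PSMA6 (ENSG00000100902.6), an alpha ring subunit, fell to 84.6% of the control mean. It had 4206, 4297 and 4320 normalized counts in the RUVBL1 siRNA libraries, against 5090, 5129 and 4933 in the control libraries (log2 fold change -0.24, SE 0.0225, edgeR adjusted p = 3.1e-06). PSMA7 (ENSG00000101182.10), also of the alpha ring, had 5781, 5839 and 5652 after RUVBL1 siRNA, against 6781, 6680 and 6647 normalized counts in the control libraries (log2 fold change -0.22, SE 0.0182, edgeR adjusted p = 1.09e-06). The groups did not overlap for either gene, and both falls were kept with totals alone. PSMA6 shares 14.1% of its exon bases with AL121594.1 on the same strand. That gene had 82 to 115 counts in the RUVBL1 siRNA libraries and 112 to 165 in the control libraries. PSMA6 also has 4 annotated pseudogene copies whose counts summed to 1.09% of its own. The part of such reads in the fall of PSMA6 was not tested.

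PSMA2 (ENSG00000106588.6) had 3358, 3274 and 3398 normalized counts in the RUVBL1 siRNA libraries, against 3589, 3943 and 3804 in the control libraries (log2 fold change -0.18, edgeR adjusted p = 0.000993). All 3 RUVBL1 siRNA libraries were lower than the lowest control library. The call was lost with totals alone (log2 fold change -0.08, adjusted p = 0.0725). Its value is uncertain because 14.6% of its exon bases in GENCODE 29 are shared with AC010132.3 on the same strand, a gene with 863 to 1196 counts in the RUVBL1 siRNA libraries and 1140 to 1560 in the control libraries. PSMA4 fell by 0.07 on the log2 scale and was not called with totals alone, where it had 0.02. PSMA1 rose by a log2 of 0.07, a call lost without the low-count filter (adjusted p = 0.154).

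PSMA3 (ENSG00000100567.8) changed least in the alpha ring. It had 3528, 3490 and 3464 normalized counts in the RUVBL1 siRNA libraries, against 3445, 3548 and 3540 in the control libraries, and the groups overlapped (log2 fold change -0.01, edgeR adjusted p = 0.87). With totals alone it had 0.09 and was called (adjusted p = 0.0103). PSMA5 had a log2 fold change of -0.06 and was not called.

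The beta rings hold the proteolytic sites, and the 3 genes for the active subunits differed in their values. PSMB7 (ENSG00000136930.8), the trypsin-like subunit, rose to 109% of the control mean. It had 4699, 4659 and 4729 normalized counts in the RUVBL1 siRNA libraries, against 4344, 4278 and 4334 in the control libraries (log2 fold change 0.12, SE 0.0201, edgeR adjusted p = 0.000374). PSMB6 (ENSG00000142507.5), the caspase-like subunit, had 4185, 4242 and 4357 after RUVBL1 siRNA, against 4057, 4180 and 4165 normalized counts in the control libraries. It differed by a log2 of 0.04 (SE 0.024; not called, edgeR adjusted p = 0.172), and the groups lay side by side without overlap. PSMB5 (ENSG00000100804.14), the chymotrypsin-like subunit and main target of the drug bortezomib, had 3362, 3347 and 3338 normalized counts in the RUVBL1 siRNA libraries, against 3422, 3379 and 3429 in the control libraries. The difference, a log2 of -0.03 with an SE of 0.0238, was not called (edgeR adjusted p = 0.432). With totals alone PSMB6 had 0.14 and PSMB5 had 0.07, and both were called (adjusted p = 0.000324 and 0.0334).

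The other beta subunits are not catalytic. PSMB2 (ENSG00000126067.7) had 2704, 2739 and 2706 normalized counts in the RUVBL1 siRNA libraries, against 2703, 2695 and 2681 in the control libraries, a log2 fold change of 0.01 that was not called (edgeR adjusted p = 0.763). PSMB4, with a log2 fold change of 0.02, was not called either, and with totals alone both were called as higher. PSMB1 rose by a log2 of 0.09 (edgeR adjusted p = 0.022). Its adjusted p was over the threshold without RUVBL1 siRNA replicate 2 (0.0642) or 3 (0.0808), without control replicate 1 (0.0992), in limma-voom (0.0546) and without a low-count filter (0.0734). Split in this way after the values were seen, 4 of 7 alpha genes fell and 1 rose, while 0 of 6 beta genes fell and 2 rose in edgeR. No beta gene was lower at an unadjusted p under 0.05, or in DESeq2 or limma-voom. The medians were -0.07 for the alpha genes and 0.03 for the beta genes, and 0.02 and 0.13 with totals alone.

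**Figure D2:**
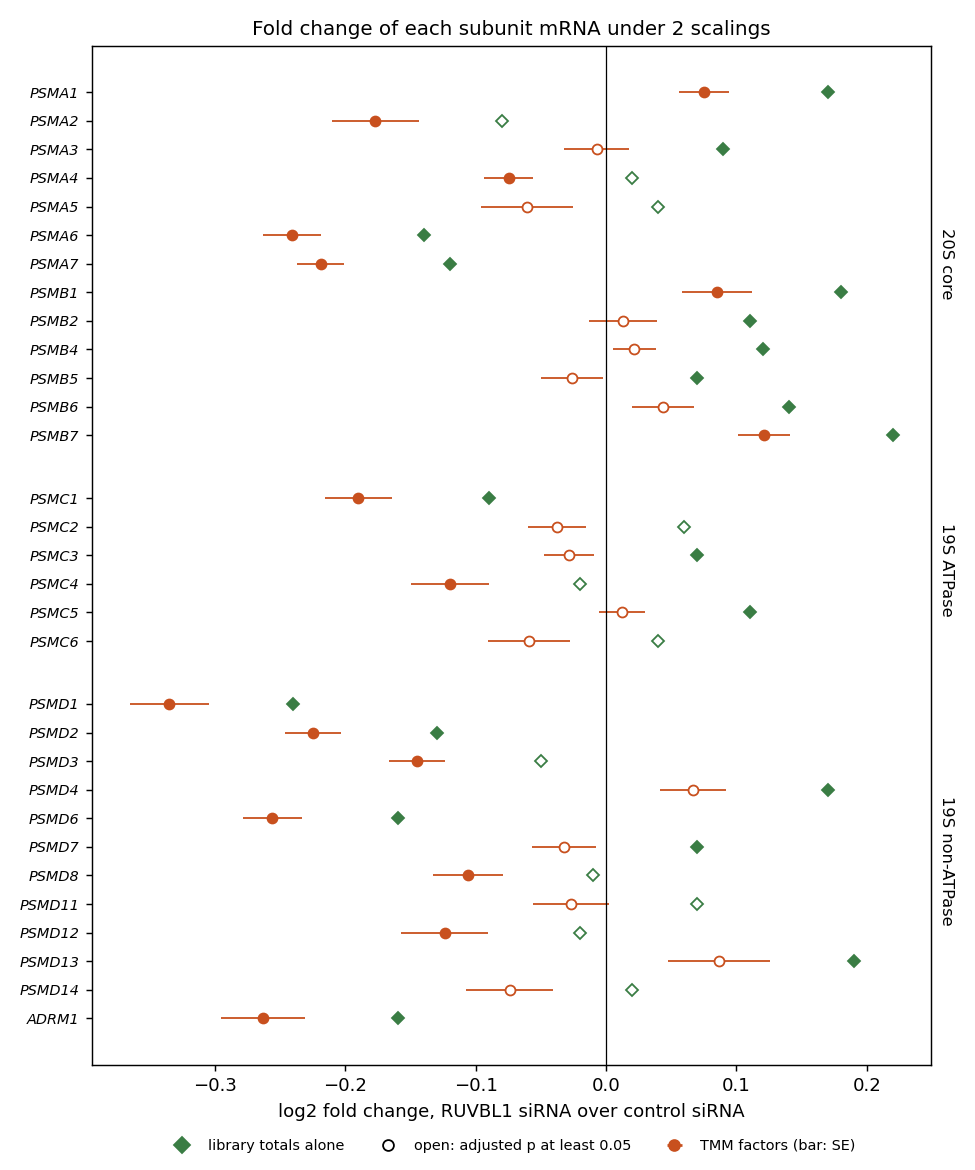
Log2 fold change (RUVBL1 siRNA over control siRNA, horizontal axis) of the 31 subunit mRNAs with TMM factors (circles, bars are SEs) and with library totals alone (diamonds); filled symbols had an adjusted p under 0.05. Scaling by totals moved the genes upward by a like amount, and 7 genes remained called as lower under both.

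The ATPases of the cap unfold the substrate and open the core's gate. PSMC1 (ENSG00000100764.9) fell to 87.7% of the control mean. It had 4675, 4403 and 4436 normalized counts in the RUVBL1 siRNA libraries, against 5226, 5088 and 5094 in the control libraries (log2 fold change -0.19, SE 0.0254, edgeR adjusted p = 6.57e-05). The groups were clearly apart, but the gene's value is uncertain. It has 13 annotated pseudogene copies whose counts summed to 16.6% of its own, and 75.8% of its exon bases overlap NRDE2 on the opposite strand, while the strand setting of the counting is not given in the sources used here. NRDE2 had 194 to 287 counts in the RUVBL1 siRNA libraries and 284 to 376 in the control libraries.

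PSMC4 (ENSG00000013275.3) had 3265, 3057 and 3232 normalized counts in the RUVBL1 siRNA libraries, against 3446, 3515 and 3417 in the control libraries (log2 fold change -0.12, edgeR adjusted p = 0.00626). All RUVBL1 siRNA libraries were lower than the controls, and the call was lost with totals alone (log2 fold change -0.02, adjusted p = 0.662). PSMC6 (ENSG00000100519.7) had 2859, 2848 and 3027 normalized counts in the RUVBL1 siRNA libraries, against 2970, 3045 and 3085 in the control libraries, with RUVBL1 siRNA replicate 3 inside the control range. Its log2 fold change of -0.06 was not called (edgeR adjusted p = 0.158). Without that library it was called (adjusted p = 0.0474), as it was without a low-count filter (0.0342), and with the replicate number as a block its adjusted p was 0.05, just under the threshold.

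PSMC3 and PSMC5 changed least among the ATPases. PSMC3 (ENSG00000165916.4) had 5137, 5019 and 5042 normalized counts in the RUVBL1 siRNA libraries, against 5182, 5110 and 5210 in the control libraries (log2 fold change -0.03, edgeR adjusted p = 0.271). PSMC5 (ENSG00000087191.8) had 6130, 6098 and 6167 after RUVBL1 siRNA, against 6167, 5982 and 6094 normalized counts in the control libraries (log2 fold change 0.01, edgeR adjusted p = 0.645). The groups overlapped for both genes. Of the exon bases of PSMC5, 19.5% overlap FTSJ3 on the opposite strand. FTSJ3 had 1594 to 2195 counts in the RUVBL1 siRNA libraries and 2899 to 4156 in the control libraries. The part of such reads in the value of PSMC5 was not tested. PSMC2 had a log2 fold change of -0.04 and was not called (edgeR adjusted p = 0.204), but it was called as lower in 2 alternatives, without RUVBL1 siRNA replicate 1 (adjusted p = 0.0437) and with only replicates 2 and 3 (0.0154).

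The largest change among all subunits was that of PSMD1 (ENSG00000173692.8), a large scaffold protein of the cap's base. It had 2339, 2358 and 2342 normalized counts in the RUVBL1 siRNA libraries, against 2918, 2900 and 3064 in the control libraries. This was a fall to 79.3% of the control mean (log2 fold change -0.34, SE 0.0301, edgeR adjusted p = 2.17e-06). The 3 RUVBL1 siRNA libraries lay within a few counts of each other, far below the controls. PSMD2, the second scaffold of the base, fell by 0.22 on the log2 scale (SE 0.0215, edgeR adjusted p = 3.75e-06).

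The cap carries 2 dedicated receptors for ubiquitin chains, and one of their mRNAs was called. ADRM1 (ENSG00000130706.8), which also docks the deubiquitinase UCHL5, fell to 83.3% of the control mean, with 2171, 2128 and 2267 normalized counts in the RUVBL1 siRNA libraries, against 2680, 2592 and 2610 in the control libraries (log2 fold change -0.26, SE 0.0322, edgeR adjusted p = 3.15e-05). Of its exon bases, 11.4% overlap LAMA5 on the opposite strand, which had 2353 to 3131 counts in the RUVBL1 siRNA libraries and 5893 to 8593 in the control libraries, and the part of such reads in the fall of ADRM1 was not tested. PSMD4 (ENSG00000159352.11), the other receptor, had 4977, 4919 and 4979 normalized counts in the RUVBL1 siRNA libraries, against 4926, 4614 and 4668 in the control libraries. Control replicate 1 lay among the RUVBL1 siRNA libraries, and the log2 fold change of 0.07 just missed the threshold (edgeR adjusted p = 0.0523). It was called as higher in 8 of the 15 alternatives, among them the one without that library (adjusted p = 0.00538), the replicate block (0.00858) and totals alone (0.000434).

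The lid removes ubiquitin from the substrate. PSMD14 (ENSG00000115233.7), its deubiquitinase, had 2337, 2508 and 2491 normalized counts in the RUVBL1 siRNA libraries, against 2575, 2619 and 2531 in the control libraries. All RUVBL1 siRNA libraries were below the controls, but the log2 fold change of -0.07 was not called (edgeR adjusted p = 0.0978), while it was with the replicate block (adjusted p = 0.0352) and without a low-count filter (0.013). PSMD7 (ENSG00000103035.6), the structural partner of PSMD14, had 4113, 4248 and 4223 after RUVBL1 siRNA, against 4174, 4367 and 4328 normalized counts in the control libraries, and the groups overlapped (log2 fold change -0.03, edgeR adjusted p = 0.333).

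Of the lid's structural subunits, PSMD6 (ENSG00000163636.6) changed most. It had 3372, 3334 and 3321 normalized counts in the RUVBL1 siRNA libraries, against 4006, 3966 and 4003 in the control libraries (log2 fold change -0.26, SE 0.0227, edgeR adjusted p = 1.96e-06). PSMD3, PSMD12 and PSMD8 fell by 0.15, 0.12 and 0.11 on the log2 scale, and each of these calls was lost with totals alone (adjusted p = 0.135, 0.611 and 0.887). PSMD11 (ENSG00000108671.5) had 2289, 2267 and 2263 normalized counts in the RUVBL1 siRNA libraries, against 2264, 2324 and 2360 in the control libraries, and was not called (log2 fold change -0.03, edgeR adjusted p = 0.515). PSMD13 had a log2 fold change of 0.09 (edgeR adjusted p = 0.105) and was called as higher with the replicate block (adjusted p = 0.00348), with totals alone (0.00518) and among genes with at least 50 counts in 3 libraries (0.0379). With the block, 15 subunit genes fell and 5 rose in all, where 25.6% and 23.4% of all genes did so, and 8 of the non-ATPase cap genes fell and 2 rose.

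The 5 measured genes with a TGACNNNGC match, shown above, were PSMC4, PSMD1, PSMD3, PSMD12 and ADRM1, and all 5 fell. Of the 21 measured subunit genes whose window held no match, 7 fell and 1 rose. PSMA7, which fell, and PSMB1 and PSMB7, which rose, had no window and are not among them. With totals alone, 2 of the 5 fell, PSMD1 and ADRM1, and 4 of the 21. Over all tested genes with a promoter window, 27.1% of 1672 with a match fell and 26.5% of 9299 without one. All 5 are cap genes, while the 21 include core genes. Of the 9 cap genes with CCGGAAG, 4 fell, as did 8 of the 17 measured subunit genes without it. These counts were drawn up after the fold changes were known and were not tested.

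Values relative to the rest of the complex do not depend on how libraries are scaled. In each library, a gene's log2 count was taken relative to the mean over the 31 subunit genes. PSMD1 moved down by 0.26 in the RUVBL1 siRNA libraries relative to the control libraries, ADRM1 by 0.19, PSMD6 by 0.18 and PSMA6 by 0.17. PSMB7 moved up by 0.19, PSMB1 and PSMD13 by 0.16 each and PSMA1 by 0.15. On this measure the groups did not overlap for 11 of 13 core genes, 8 of them higher and 3 lower. They did not overlap for 3 of 6 ATPase genes, 2 higher and 1 lower, or for 8 of 12 other cap genes, 3 higher and 5 lower. Of all genes tested, set against the same mean, 34.8% were higher and 20% lower without overlap. The median shift was 0.07 for the core, 0.03 for the ATPases and -0.04 for the other cap genes. Centring on the subunit genes puts some of them above 0 and the rest below, and no test was made of this measure.

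As a share of all counts, the 13 core genes took 0.223%, 0.222% and 0.223% in the RUVBL1 siRNA libraries, against 0.213%, 0.214% and 0.213% in the control libraries. The 6 ATPase genes took 0.108%, 0.104% and 0.106% after RUVBL1 siRNA, against 0.104%, 0.103% and 0.103% in the control libraries. The other 12 cap genes took 0.173%, 0.169% and 0.169% after RUVBL1 siRNA, against 0.174%, 0.172% and 0.172% in the control libraries. The core's share was thus higher in every RUVBL1 siRNA library, at 105% of the control mean, while that of the non-ATPase cap genes overlapped between the groups. Such shares scale libraries by their totals. With totals alone the median log2 fold change was 0.09 for the core and 0.11 over all genes tested. In TMM-scaled counts the summed level of each class was lower after RUVBL1 siRNA, at 97.6% of the control mean for the core, 95.7% for the ATPases and 92% for the other cap genes.

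Levels differed far more between subunits than between the groups. Normalized counts per kilobase, with the median length of a gene's protein-coding transcripts in GENCODE 29, ran from 785 for PSMB2 to 7582 for PSMB4 after RUVBL1 siRNA, and from 778 for PSMB2 to 7895 for PSMA7 with control siRNA. That is a 9.66-fold range with RUVBL1 siRNA and a 10.1-fold range with control siRNA. The median level of the core genes was 4863 per kilobase after RUVBL1 siRNA and 4799 with control siRNA. That of the ATPase genes was 3526 after RUVBL1 siRNA and 3803 with control siRNA, and that of the other cap genes was 2477 after RUVBL1 siRNA and 2514 with control siRNA. PSMA7 had 6781 ± 113 per kilobase after RUVBL1 siRNA and 7895 ± 82.4 with control siRNA, while PSMB4 had 7582 ± 39.9 after RUVBL1 siRNA and 7469 ± 47.4 with control siRNA (SD, n = 3 each). In the control libraries PSMA7 and PSMB4 were also highest when the length of all annotated exons was used, at 3830 and 3336 per kilobase, but the lowest were then PSMD11 and PSMD14, at 322 and 335. Other high genes moved as well. In the control libraries PSMA4 had 6928 per kilobase with the first length and 766 with all exons, and PSMC5 had 6764 and 1354. The order of the genes below PSMA7 and PSMB4 therefore rests on the choice of length, and the class medians above were taken with the first length.

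**Figure D3:**
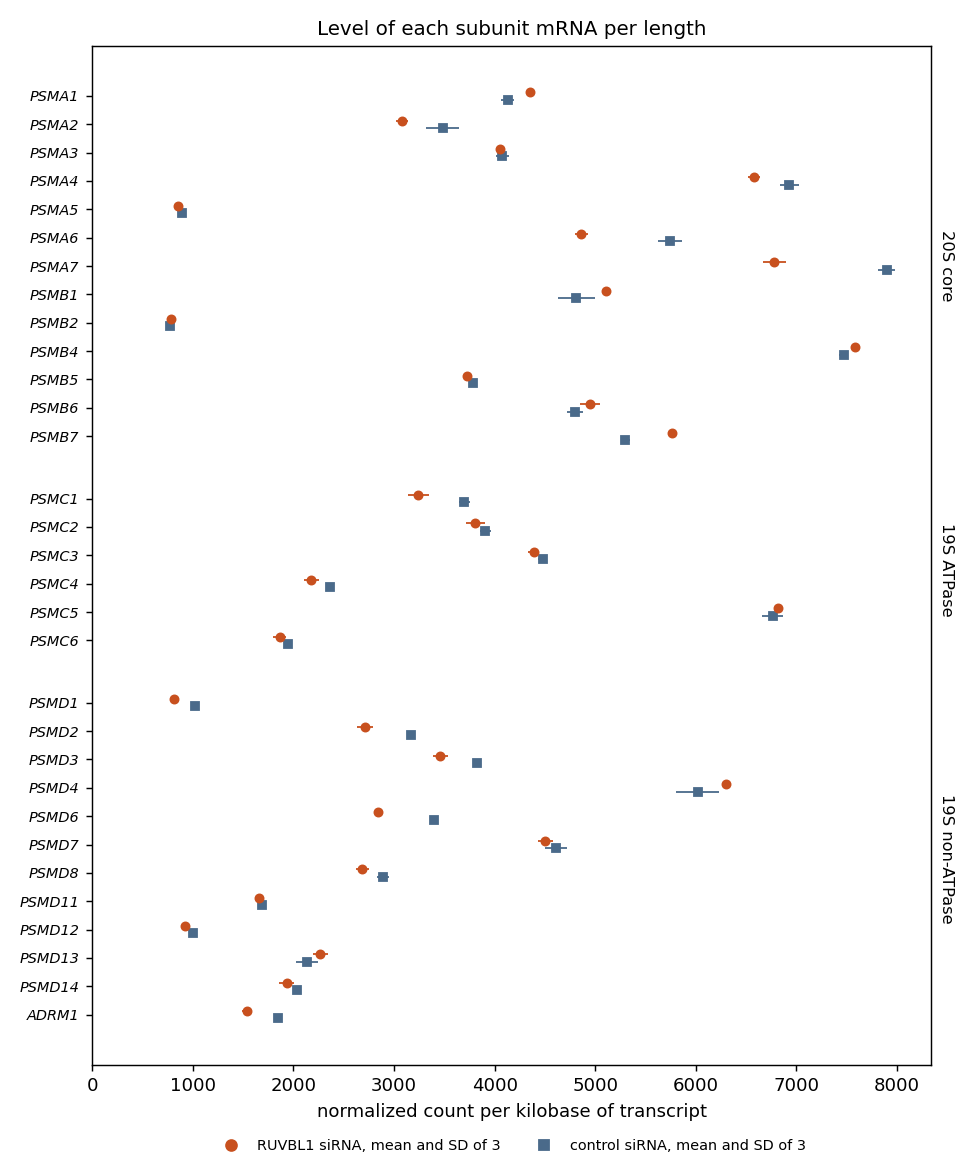
Normalized count per kilobase of transcript (horizontal axis, linear from 0) of the 31 subunit mRNAs; points are means and bars SDs of 3 libraries, circles for RUVBL1 siRNA and squares for control siRNA. The genes spread over a 10.1-fold range in the control libraries, and the groups of 1 gene lie close together.

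Across the 31 subunit genes, longer transcripts had somewhat lower fold changes (Spearman's rho -0.312 between log2 fold change and length), and the rho with the level was 0.121. Over all tested genes these were -0.117 (15443 genes with a length) and -0.248. The genes share their libraries, so no p is given, and the part of length in the falls was not tested.

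Genes that build, regulate or feed the proteasome were described next, from lists written with earlier results of these data known. Each is given by its counts, beside the 19.1% of all genes that rose and the 23.1% that fell. The immunoproteasome genes PSMB8, PSMB9 and PSMB10, whose products replace the active beta subunits under interferon, were far less abundant than the constitutive ones. PSMB10 had 592 ± 7.63 normalized counts after RUVBL1 siRNA and 600 ± 14 with control siRNA (SD, n = 3 each). PSMB8 had 134 ± 14 after RUVBL1 siRNA and 166 ± 9.46 with control siRNA, and PSMB9 had 49.5 ± 5.75 after RUVBL1 siRNA and 47.7 ± 6.32 with control siRNA. Of these 3, 0 were called by edgeR (adjusted p = 0.0581 for PSMB8), DESeq2 or limma-voom, and 1, PSMB8, had an unadjusted p under 0.05. With the replicate block PSMB8 was called as lower (adjusted p = 0.023). PSMB11 and PSMA8, made in the thymus and the testis, did not pass the low-count filter.

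Among 10 assembly factors, 3 rose and 3 fell. PSMD5, a chaperone of the base, fell by 0.30 on the log2 scale, with 774, 722 and 776 normalized counts in the RUVBL1 siRNA libraries, against 953, 916 and 935 in the control libraries (edgeR adjusted p = 0.000169). PSMG1, which assembles the alpha ring, fell by 0.23, whereas its partner PSMG2 rose by a log2 of 0.17 (edgeR adjusted p = 0.000225 and 0.00351). The products of these last 2 genes act as a heterodimer, and their mRNAs moved in opposite directions under both scalings. POMP, the maturation factor of the core, rose by a log2 of 0.08 (adjusted p = 0.00641), a call lost without control replicate 1 (0.0521) and without a low-count filter (0.098). Named after their values were seen, PSMD9 fell by 0.12 and was not called with totals alone, and PSMD10 had 0.09, not called in the edgeR fit (adjusted p = 0.0859) and called as higher with the replicate block (0.0192) and with totals alone (0.00235). Of 5 activators and inhibitors, PSME4 and PSME3, which encode nuclear activators, fell by 0.17 and 0.11, and neither was called with totals alone. PSME1 and PSME2, subunits of the interferon-induced activator, had log2 fold changes of -0.03 and -0.06 and were not called.

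Of 7 transcriptional regulators, 3 fell and 2 rose. NFE2L1 had 5938, 5876 and 5751 normalized counts in the RUVBL1 siRNA libraries, against 6563, 6429 and 6410 in the control libraries (log2 fold change -0.14, SE 0.0184, edgeR adjusted p = 4.66e-05). DDI2 and NGLY1, the protease and the glycanase that process NFE2L1 protein into its active form, fell by 0.11 and 0.20 (edgeR adjusted p = 0.0255 and 0.0179). All 3 were below their controls in each library, and none was called with totals alone (adjusted p = 0.112, 0.89 and 0.193). The call of DDI2 was also lost in DESeq2 (0.0849), without RUVBL1 siRNA replicate 1 (0.0569) or 2 (0.0671) and without control replicate 2 (0.077), and that of NGLY1 without RUVBL1 siRNA replicate 1 (0.0601) or 3 (0.0582) and without control replicate 2 (0.1). NFE2L2, the related factor of the oxidative stress response, had 1401, 1433 and 1481 after RUVBL1 siRNA, against 1502, 1484 and 1390 normalized counts in the control libraries and was not called (log2 fold change -0.02, edgeR adjusted p = 0.741). The small MAF genes MAFF and MAFG rose by 0.85 and 0.23. MAFF was low, at 55.7 ± 2.23 normalized counts after RUVBL1 siRNA and 30.9 ± 9.03 with control siRNA (SD, n = 3 each), and its adjusted p passed 0.05 in DESeq2 (0.0544) and when RUVBL1 siRNA replicate 2 (0.053), control replicate 1 (0.0504) or control replicate 2 (0.0617) was left out, so the call was lost.

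Of 6 genes for ubiquitin and its activating enzymes, 4 fell and 1 rose. The activating enzymes UBA6 and UBA1 fell by 0.26 and 0.18 in log2 units, with adjusted p-values of 0.000671 and 5.22e-05 in edgeR, and both falls were kept with totals alone. UBA6 had 1068, 964 and 1070 normalized counts in the RUVBL1 siRNA libraries, against 1226, 1282 and 1201 in the control libraries, and the groups did not overlap. UBB, which encodes a chain of ubiquitins, fell by 0.10, a call lost with totals alone (adjusted p = 0.927).

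Factors that deliver substrates moved both ways, with 3 of 10 higher and 2 lower. VCP, the AAA+ ATPase that extracts ubiquitylated proteins from complexes and membranes, fell to 82.2% of the control mean, with 11511, 10990 and 10990 normalized counts in the RUVBL1 siRNA libraries, against 13702, 13556 and 13486 in the control libraries (log2 fold change -0.28, edgeR adjusted p = 3.87e-07). UBQLN1, a shuttle for ubiquitylated proteins, fell by 0.19, while the shuttle RAD23B rose by 0.24 and ZFAND5, an activator of the proteasome, by 0.29. All 4 were called in the same direction with totals alone, as was TXNL1, the third gene that rose, named after its value was seen. Among 5 proteins that associate with the cap or remain from its lid, SEM1, the small lid subunit, rose by a log2 of 0.16, while the deubiquitinase USP14, the adaptor ECPAS and the ligase UBE3C fell by 0.15, 0.13 and 0.09. The last 3 were not called with totals alone, and the call of UBE3C was also lost without RUVBL1 siRNA replicate 2 (adjusted p = 0.0803) or 3 (0.105).

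The COP9 signalosome, which takes the ubiquitin-like protein NEDD8 off cullins, has subunits related in sequence to those of the proteasome lid. Of its 9 genes, 5 fell and 1 rose, with the same 5 called as lower with totals alone and a median log2 fold change of -0.23. COPS3, GPS1 and COPS4 fell by 0.37, 0.34 and 0.33 and COPS2 by 0.23. The fifth that fell, COPS5, and the one that rose, COPS7A, were named after their values were seen and had -0.23 and 0.11. COPS3 had 2456, 2497 and 2589 normalized counts in the RUVBL1 siRNA libraries, against 3158, 3214 and 3370 in the control libraries (edgeR adjusted p = 2.11e-06). The 8 proteasome lid genes measured had a median of -0.09, with 4 that fell and 0 that rose in edgeR, where 0 were higher at an unadjusted p or in DESeq2 or limma-voom. With totals alone 1 lid gene fell and 2 rose, with a median of 0.01, and the COP9 median was -0.13. Whether the 2 lists differ was not tested.

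AKIRIN2, a nuclear import factor of the proteasome on the list of assembly factors, was chosen after its values were seen. It had 130, 120 and 121 normalized counts in the RUVBL1 siRNA libraries, against 57, 90 and 96 in the control libraries, and rose by a log2 of 0.60 (SE 0.183, edgeR adjusted p = 0.0187). The groups did not overlap, and control replicate 1 was the lowest. The log2 fold change was 0.40 without that library and 0.37 in replicates 2 and 3 alone. The adjusted p was over the threshold when RUVBL1 siRNA replicate 1 (0.0611), 2 (0.0556) or 3 (0.0567) was left out.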

How the data were processed

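The authors deposited estimated counts for each gene and library, unscaled, as decimals and differing totals show. The submitters' processing notes name Bowtie 0.12.2 and the mouse builds mm8 and mm9, which conflicts with the human Ensembl identifiers in the files. The program that counted reads, its annotation and its strand setting were not given in the sources used here. Symbols were matched by stable identifier for 51996 of 57820 genes. Counts were rounded and fitted in R 4.3.3 with edgeR 4.0.16 (filterByExpr, TMM, robust quasi-likelihood fit, group as the only term) with Benjamini-Hochberg adjustment. The SE is the log2 fold change divided by the square root of F. The alternatives were DESeq2 1.42.0, limma-voom (limma 3.58.1), other scalings and filters, a replicate block, and leaving out libraries or genes at 0 in replicate 1. The fit was tested on simulated data.

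Members and lists were chosen with earlier results of these data known. Per-library values are given for PSMB5, PSMB6, PSMB7, PSMD4, ADRM1 and PSMD14 and, in each class, for the 3 members with the largest and the 2 with the smallest change. In related lists, NFE2L1, NFE2L2, DDI2 and up to 4 genes with the smallest p were named; some genes are not reported here. Libraries with the same replicate number deviated together (correlations 0.939, 0.819 and 0.823 across genes), and each was over 0.1, so the numbers were taken to pair them. Replicates 2 and 3 correlated nearly as much across numbers (0.807 and 0.817). Without genes at 0 in both replicate 1 libraries the values were 0.423, 0.192 and 0.22 for the same number, and 0.137 and 0.176 for replicates 2 and 3 across numbers, so the pairing of these 2 is weakly marked. It comes from these values, not from the labels.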

Additional observations from a re-analysis of the deposited data

How the results depend on the processing

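Over 31 subunit genes and 15 alternatives, 427 of 465 values kept their side of the threshold. Direction was counted only where the main fit or the alternative called the gene. More of the other values came from scaling by library totals alone than from any other alternative. With totals alone, 4981 of all genes rose and 2297 fell, and 68.4% of calls were higher against 45.3% with TMM factors. For the subunits 13 rose and 7 fell (core 8 and 2, ATPases 2 and 1, other cap genes 3 and 4). The medians were 0.04 for all 31 subunit genes, 0.09 for the core, 0.05 for the ATPases and -0.02 for the other cap genes. The median over all genes tested was then 0.11. The log2 fold change turned positive for PSMA3 (0.09), PSMA4 (0.02), PSMB5, PSMC3 and PSMD7 (0.07 each) and for UBE3C (0.01). These were called with TMM factors or with totals alone. It also turned positive, without a call in either fit, for PSMA5 and PSMC6 (0.04 each), PSMC2 (0.06), PSMD11 (0.07) and PSMD14 (0.02). Among the related genes named, the same held for NFE2L2 and PSMB10 (0.08 each), PSME1 (0.06) and PSME2 (0.04). This follows from the construction of that scaling, which moved the fold changes up by a median of 0.0993.

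Without a low-count filter, 1 subunit gene rose, in the core, and the medians were -0.03 for the core and -0.07 for the ATPases. With at least 50 counts in 3 libraries, 5 subunit genes rose, 2 of them non-ATPase cap genes, and the replicate block gave the same counts of 5 and 2. The number of non-ATPase cap genes that rose was 1 instead of 0 with DESeq2, with DESeq2 size factors, in replicates 2 and 3 alone and without genes at 0 in replicate 1. In replicates 2 and 3 alone the medians were -0.03 for the core and -0.07 for the ATPases. Leaving out 1 library at a time, subunit genes called as higher ran from 2 to 3 and as lower from 13 to 14. Of all genes tested in these fits, 15% to 16.7% were called as higher and 20.1% to 22.2% as lower. Non-ATPase cap genes called as higher ran from 0 to 1. The medians ran from -0.03 to -0.00 for the core and from -0.06 to -0.04 for the ATPases. Apart from totals alone, the cause of these differences was not tested. The block changed the calls of PSMC6, PSMD4, PSMD13 and PSMD14 among the subunits and of PSMB8 and PSMD10 among the related genes, and no other call of the members and named genes.

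Among 41 other genes named, RUVBL1 and 2 markers included, 576 of 613 values kept their side of the threshold. Direction was again counted only where either fit called the gene. Subunit counts were at least 1599 in each library, and whether more depth would call their smaller changes was not tested. MAFF, PSMB9 and AKIRIN2 rest on few counts.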
